A study of Mus musculus with 1483 samples.

Results

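The cells described here are excitatory neurons of mouse visual cortex (labelled VISp) that an enhancer named eHGT_078h had marked, chosen by their measured levels of 4 mRNAs and divided by how much Fezf2 each cell held. An adeno-associated virus carried the enhancer in front of a fluorescent protein, SYFP2, and single fluorescent cells were flow sorted and sequenced one by one with the SMARTerv4 chemistry from polyadenylated RNA. The whole series holds 1483 such cells from 33 C57Bl/6J mice and 11 enhancers, and eHGT_078h accounts for 140 cells from 3 mice. Cells were kept where Slc17a7, which loads glutamate into the synaptic vesicles of most cortical excitatory cells, reached 10 counts per 1000000 reads (CPM) and both Gad1 and Gad2, the enzymes that make GABA, stayed under 10 CPM. The gate kept 136 of the 140 cells, with 48 from mouse 1, 44 from mouse 2 and 44 from mouse 3. Of these, 54 cells with Fezf2 at 50 CPM or more form the Fezf2-positive set (20, 16 and 18 cells by mouse), and 82 cells under 50 CPM form the Fezf2-negative set (28, 28 and 26 cells). Both sets carried the same virus and came from the same C57Bl/6J animals, so no gene was manipulated between them. The genotype label of these animals is the name of the enhancer. Neither the age nor the sex of the animals was given. Only cells in which the enhancer was active enough for sorting are represented.

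Fezf2 encodes a zinc finger transcription factor that directs cortical neurons of the deep layers toward a corticofugal fate. In layer 5 it is a hallmark of extratelencephalic (ET) neurons, which send axons to the tectum, pons and spinal cord, and it acts upstream of Bcl11b (Ctip2). Intratelencephalic (IT) neurons, which project to other cortical areas and across the corpus callosum, lie in all layers below the first and commonly express Cux1 and Cux2 in the upper layers and Rorb in layer 4 and part of layer 5. Crym, which encodes the thyroid hormone binding protein mu-crystallin, and Pou3f1, a POU domain transcription factor, served as the accompanying markers and were named with earlier results of these data known.

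Promoters of genes from both ends of the contrast are shown first, 2 higher and 2 lower in Fezf2-positive cells. Whether these genes share regulation was not tested. The 250 bases before the start of the RefSeq promoter entry (GRCm38.p6) are printed 5′ to 3′ on the strand of the gene. They are given for the first 2 named genes of each direction that have a single RefSeq entry and little overlap with another transcript. Measured against the full gene span, 2 windows are not wholly upstream. Most of the Stac window lies inside its span (chr9:111561437-111690588), and the Stk17b window overlaps the end of its span (chr1:53755512-53785237). Capitals mark every E-box, CANNTG, a motif that reads the same on both strands. Stk17b (chr1:53785216-53785465, minus strand) and Stac (chr9:111690349-111690598, minus strand) were higher in Fezf2-positive cells, and Cbln4 (chr2:172043467-172043716, minus strand) and Ptgs2 (chr1:150099781-150100030, plus strand) were lower.
Stk17b: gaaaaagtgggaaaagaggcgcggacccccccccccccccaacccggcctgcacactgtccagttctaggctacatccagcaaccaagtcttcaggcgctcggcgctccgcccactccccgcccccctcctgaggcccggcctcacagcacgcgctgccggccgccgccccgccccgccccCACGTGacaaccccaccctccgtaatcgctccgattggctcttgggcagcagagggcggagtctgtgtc
Stac: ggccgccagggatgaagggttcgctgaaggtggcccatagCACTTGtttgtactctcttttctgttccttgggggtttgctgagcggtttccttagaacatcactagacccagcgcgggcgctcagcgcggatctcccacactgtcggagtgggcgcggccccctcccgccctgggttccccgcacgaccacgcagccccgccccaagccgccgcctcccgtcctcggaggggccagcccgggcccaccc
Cbln4: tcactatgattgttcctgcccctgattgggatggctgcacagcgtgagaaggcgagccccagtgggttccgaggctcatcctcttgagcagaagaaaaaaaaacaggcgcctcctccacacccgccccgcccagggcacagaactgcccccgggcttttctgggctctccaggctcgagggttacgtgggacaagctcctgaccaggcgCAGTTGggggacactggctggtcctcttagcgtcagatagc
Ptgs2: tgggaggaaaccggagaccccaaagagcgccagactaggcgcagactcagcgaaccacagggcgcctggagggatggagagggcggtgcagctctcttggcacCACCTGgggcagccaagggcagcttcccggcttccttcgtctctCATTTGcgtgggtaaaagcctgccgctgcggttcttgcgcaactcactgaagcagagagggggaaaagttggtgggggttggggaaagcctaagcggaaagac
Stk17b, Stac and Cbln4 each hold 1 E-box in this window and Ptgs2 holds 2. Of all 32851 RefSeq entries, 66.2% hold at least 1 E-box in their window. Of the 24 genes named by rank, 17 have an entry.

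Fezf2 itself chose the sets, so its values are a description. The gated cells fell mainly at the ends of the scale: 73 cells had no Fezf2 read, 9 were above 0 and under 50 CPM, 3 lay from 50 to under 100 CPM, and 51 reached 100 CPM or more. Nearest above the cut were cells at 60.0, 73.6 and 94.8 CPM, and nearest below it were cells at 42.5, 41.5 and 40.7 CPM. The mean Fezf2 level in Fezf2-positive cells was 448, 385 and 283 CPM in mice 1, 2 and 3, against 7.25, 1.52 and 0.244 CPM in Fezf2-negative cells. Mouse 3 had the lowest mean in the positive set, and its positive cells reached down to 73.6 CPM while those of mouse 2 began at 272 CPM. The share of Fezf2-positive cells was 41.7%, 36.4% and 40.9% in the 3 mice, a mean of 39.6% ± 2.87 (SD, n = 3). Slc17a7, also part of the gate, averaged 838, 581 and 563 CPM in positive cells and 1263, 1564 and 767 CPM in negative cells.

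**Figure D1:**
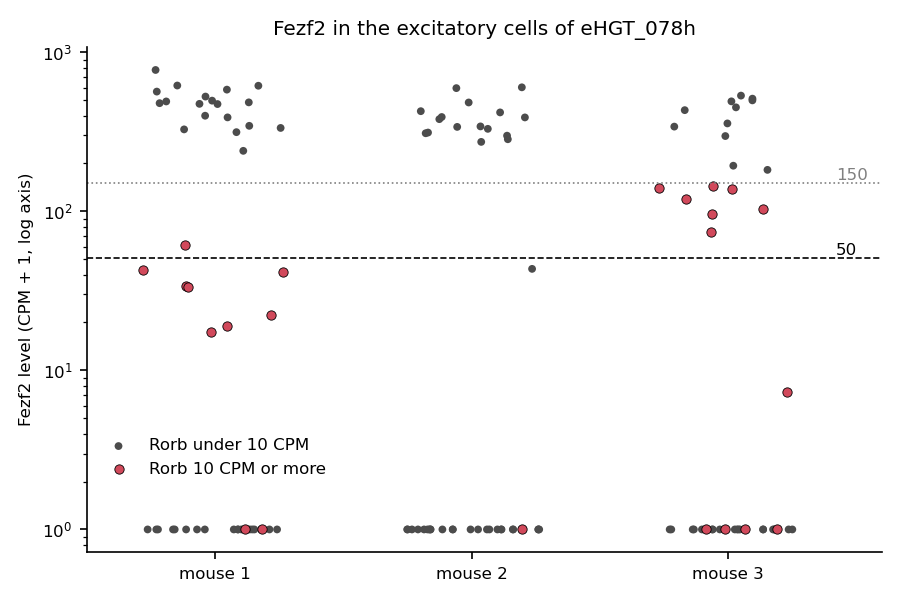
Fezf2 level of each of the 136 gated cells (CPM + 1, log axis) by mouse, with cells holding 10 CPM or more of Rorb in red and lines at the 50 CPM cut and at 150 CPM. The 7 red cells above the cut in mouse 3 and the 1 in mouse 1 all lie under the 150 CPM line, and every other positive cell lies above it.

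Depth was high for single cells and similar between the sets. Gated cells held 66239 to 907004 reads, with a median of 572928, so that 1 read in the median cell was worth 1.75 CPM. The median number of genes per cell was 10592, 10811 and 10695 in the positive sets and 10111, 9756 and 9727 in the negative sets of mice 1, 2 and 3. In mouse 3 the positive cells were the deeper set, with a median of 522101 reads against 351124. Cells of mice 1 and 2 shared library prefixes in the labels, and some cells of mouse 1 had a further prefix. Cells of mouse 3 had prefixes not found in mice 1 and 2. Each mouse gave cells to both sets, but unevenly by prefix. In mouse 3, 1 prefix held 16 negative and 6 positive cells, and the other held 10 and 12. The part of the prefix was not tested. The part of depth in the results was not tested beyond a repeat with cells of 100000 reads or more.

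Of 15641 genes tested across the 3 mice, 732 (4.68%) were called, which required a limma adjusted p (Benjamini-Hochberg over all genes tested) under 0.05 together with a log2 difference of 1 or more in size. Of these, 293 were higher in Fezf2-positive cells (1.87% of genes tested) and 439 were lower (2.81%). These shares are the background for the counts of called list members below, and no list was tested against them. The log2 difference is positive minus negative, of log2(mean CPM + 1) per mouse, averaged over the mice; its median over all genes tested was -0.02. Every one of the 293 and 439 genes had the same sign in all 3 mice. The 3 mice of one set did not overlap those of the other for 285 of the higher and 423 of the lower genes, against 12.8% of all genes tested in each direction. Shared sign and lack of overlap follow largely from the calling rule, which favours genes whose 3 differences agree, and are a description. The split between directions depended on the summary over cells: the mean of log2 values over cells, in place of the log2 of the mean, gave 1471 calls of which 922 were higher and 549 lower. The count rested on the mice in it: 4 genes were called without mouse 1, none without mouse 2 (2224 at an unadjusted p under 0.05, by limma) and 972 without mouse 3. An exact paired test of a single gene over 3 mice cannot give a p below 0.25, so all p-values here come from the fit across genes.

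**Figure D2:**
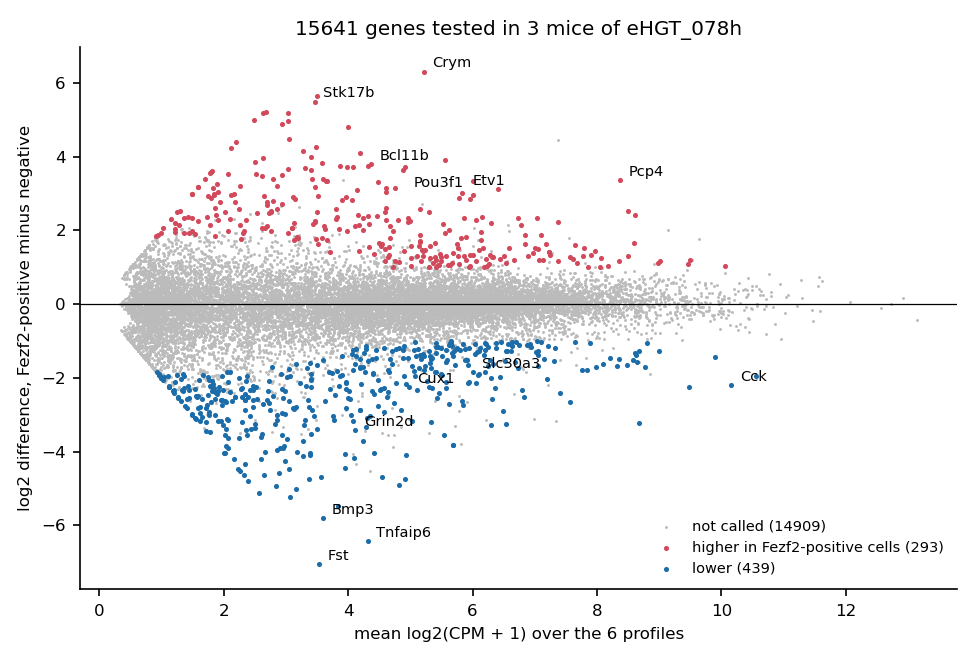
Log2 difference (Fezf2-positive minus negative) of each of 15641 genes against its mean log2(CPM + 1) over the 6 profiles of mouse and set, with the 293 genes called higher in red and the 439 called lower in blue. Crym lies at the top of the called genes and Fst at the bottom, and Cck and Pcp4 are among the called genes of high level.

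The markers of layer 5 ET neurons rose together in Fezf2-positive cells. All 8 of the 10 listed genes that could be tested were called higher, against 1.87% of all genes tested. Their median log2 difference was 3.23, and none was called lower. Crym (chr7:120186380-120201989, mm10) averaged 371, 328 and 293 CPM in the positive sets of mice 1, 2 and 3, and 12.98, 2.09 and 0.671 CPM in the negative sets. The sets lay far apart in every mouse, with a log2 difference of 6.31 (SE 0.49; limma adjusted p = 0.00547), the largest of the named genes that were higher. Pou3f1 averaged 150, 118 and 61.7 CPM in positive cells against 8.88, 3.95 and 11.1 CPM in negative cells, a log2 difference of 3.63 (SE 0.42; limma adjusted p = 0.0114). Its positive level was lowest in mouse 3, yet the sets did not overlap. Bcl11b, the zinc finger factor that shapes corticospinal axon growth, averaged 119, 96.3 and 38.6 CPM against 1.29, 17.1 and 3.12 CPM (log2 difference 3.80, SE 0.60; limma adjusted p = 0.0225). Its spread between mice was wide in both sets, 84.5 ± 41.3 against 7.17 ± 8.66 CPM (SD, n = 3), without overlap.

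The other markers called higher on the ET list were Fam84b (4.88), Npr3 (2.83), which encodes the clearance receptor of natriuretic peptides, Bcl6 (2.50), a transcriptional repressor, Vat1l (2.23) and Ldb2 (1.35), a LIM domain binding cofactor; values in brackets are log2 differences. Ldb2 was present in both sets at 398, 434 and 317 CPM against 148, 207 and 107 CPM, so that it marked the positive set by level and not by presence. Chrna6, a nicotinic receptor subunit of a subset of ET neurons, was read only in mouse 3, at 13.8 CPM in the positive set, and Slco2a1 stayed under 1 CPM throughout. Neither could be tested.

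**Figure D3:**
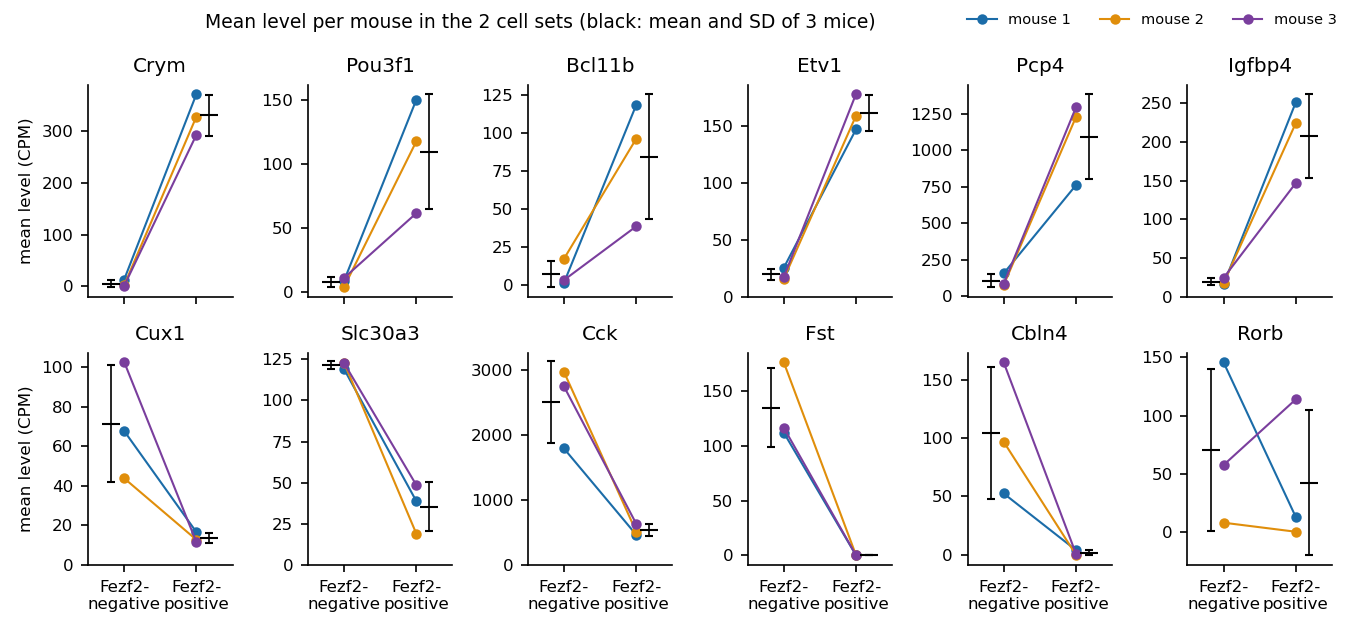
Mean level (CPM) of 12 genes in the Fezf2-negative and Fezf2-positive set of each mouse (coloured lines), with the mean and SD of the 3 mice in black. Crym, Pou3f1, Bcl11b, Etv1, Pcp4 and Igfbp4 rise in each mouse, Cux1, Slc30a3, Cck, Fst and Cbln4 fall in each mouse, and Rorb falls in mice 1 and 2 and is higher in the positive set of mouse 3 (114 against 57.7 CPM).

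Single cells show how general these differences were. Crym reached 10 CPM in 92.6% of positive cells and in 9 of 82 negative cells, and Pou3f1 in 85.2% and 25.6%. In 1125 GABAergic cells of the whole series, which should lack both genes, the shares were 0.356% for Crym and 1.24% for Pou3f1, at a median of 586931 reads against 587978 in the positive cells. Both markers were present together in 44 of the 54 positive cells: 19 of 20 in mouse 1, 16 of 16 in mouse 2 and 9 of 18 in mouse 3. Crym without Pou3f1 was found in 6 cells and Pou3f1 without Crym in 2, all of mouse 3, and 2 cells (1 each of mice 1 and 3) had neither. Mouse 3 thus held 9 of the 10 positive cells that lacked one or both markers.

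The 12 largest rises included Crym and Fam84b of the ET list and 10 genes outside it. Stk17b, a death-associated serine/threonine kinase, averaged 95.1, 80.0 and 51.9 CPM in positive cells, and was at 0, 0 and 3.47 CPM in negative cells (log2 difference 5.50). Stac, an adaptor of voltage-gated calcium channels, averaged 45.3, 51.1 and 24.1 CPM against a single read in 1 mouse (5.22). Nrtn, which encodes neurturin, a ligand of the GDNF family, averaged 40.99, 49.8 and 23.7 CPM against 2 reads in all negative cells (5.19). No negative cell reached 10 CPM of Stac or Nrtn, whereas 3 of 26 negative cells of mouse 3 did so for Stk17b. Syt2, a fast calcium sensor of transmitter release, rose by 5.18, and Rasgrp2, a guanine nucleotide exchange factor for Rap, by 4.97 on the same scale. Scara3 and Teddm3 had no read in any negative cell and were at least 459-fold and 313-fold higher against a floor of 3 reads over the negative set (0.0685 CPM). Fstl5 (4.80), the melanocortin receptor gene Mc4r (4.48) and Tekt5 (4.27) complete the list. The adjusted p of the 12 genes ran from 0.00520 (Nrtn) to 0.0281 (Mc4r) by limma.

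Among the 12 largest falls, Fst came first. It encodes follistatin, which binds activins and some BMPs, and it had no read in any of the 54 positive cells, which allows a share of cells of up to 5.56%. In negative cells it averaged 112, 177 and 117 CPM and reached 10 CPM in 67.1% of cells, so it was at least 1361-fold lower in the positive set against a floor of 3 reads (0.0994 CPM; limma adjusted p = 0.00351). Tnfaip6, a hyaluronan binding secreted protein, averaged 1.59, 0 and 2.86 CPM in positive against 386, 148 and 110 CPM in negative cells (log2 difference -6.43). A minority of the negative cells carried it: 32 of 82 reached 10 CPM and the highest held 5553 CPM. Bmp3, a ligand of the BMP family, fell by 5.80 and Cbln4, a secreted synapse organizer of the cerebellin family, fell by 5.48. Cbln4 was at 52.5, 96.8 and 165 CPM in negative cells and at 4.03, 0 and 0.923 CPM in positive cells, where 2 of 54 cells reached 10 CPM. Met, the receptor of hepatocyte growth factor, had no read in positive cells and was at least 321-fold lower. Mxra7 (-5.24), Ptgs2 (-5.01), the inducible cyclooxygenase, the nuclear receptor gene Pparg (-4.92), the sorting receptor gene Sorcs3 (-4.90), the calcium sensor gene Hpcal1 (-4.75), the G protein subunit gene Gnb4 (-4.70) and Tnnc1 (-4.68) make up the remainder. The sets of the 3 mice did not overlap for any of the 24 named genes. These genes were chosen by the size of their differences in the same mice, so this is a description. Over all genes tested, 12.8% did not overlap in each direction.

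**Figure D4:**
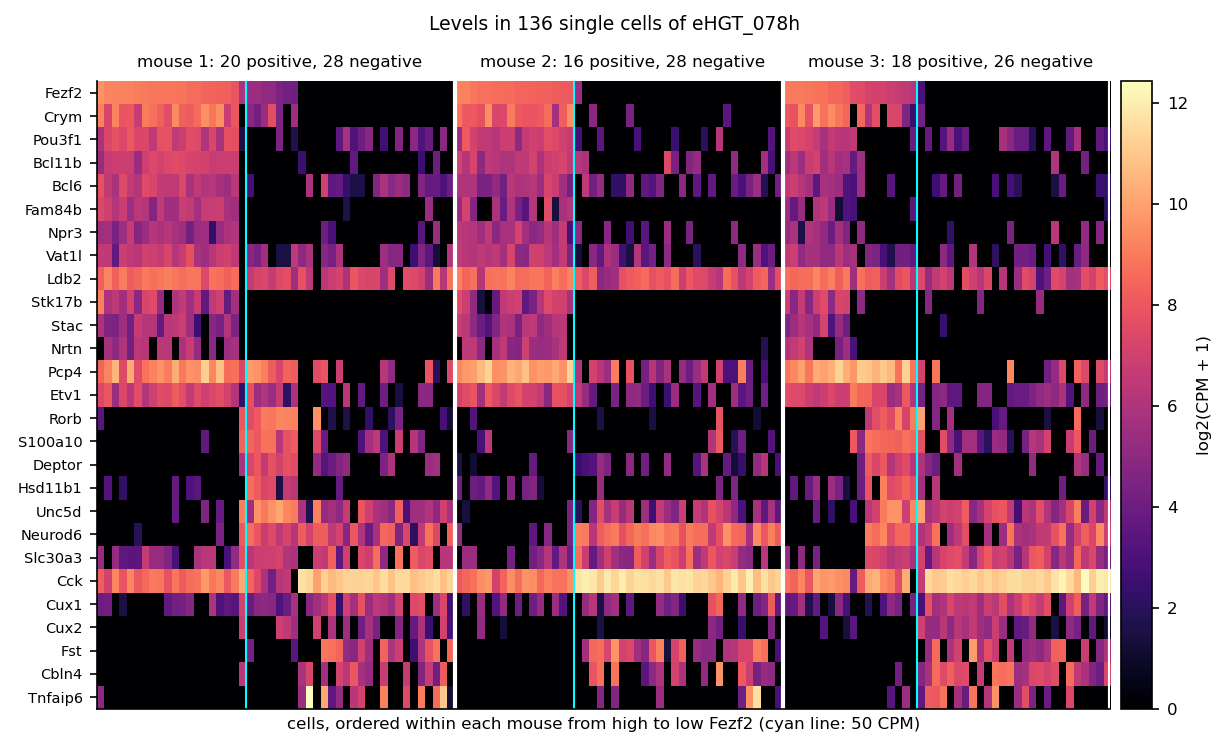
Level (log2(CPM + 1), colour) of 27 genes in the 136 gated cells, ordered within each mouse from high to low Fezf2, with the cyan line at the 50 CPM cut. To the left of the line most cells hold Crym, Pou3f1 and Bcl11b together, and a block of cells with Rorb, S100a10, Deptor, Unc5d and Neurod6 lies just left of the line in mouse 3 and just right of it in mouse 1.

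Of 9 tested markers of layer 2/3 IT neurons, 5 were called lower in Fezf2-positive cells and none higher. The median log2 difference was -2.31, and 8 of the 9 lay below 0. Over all genes tested, the shares called were 2.81% lower and 1.87% higher. Cux1, a homeobox factor of upper layer neurons, averaged 16.6, 12.7 and 11.6 CPM in positive against 67.7, 43.8 and 103 CPM in negative cells (log2 difference -2.24, SE 0.30; limma adjusted p = 0.0171). Rasgrf2 (-2.34), Wfs1 (-2.31), Otof (-3.48) and Stard8 (-3.85) were the others. Cux2 was at 5.44, 2.21 and 1.09 CPM in positive against 29.1, 2.66 and 34.9 CPM in negative cells and did not pass, with nearly equal values in mouse 2. Calb1, the calcium buffer calbindin, was at 64.9, 72.2 and 32.5 against 548, 197 and 1064 CPM and missed the threshold (limma adjusted p = 0.0578).

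All 11 tested genes of callosal and upper layer neurons had log2 differences below 0, with a median of -1.85. Against 2.81% of all genes tested, 3 of the 11 were called lower. These were Cux1, Lpl (-3.84), which encodes lipoprotein lipase, and Slc30a3 (-1.85), the synaptic vesicle zinc transporter. Slc30a3 was even between mice in the negative set, at 119, 123 and 123 CPM, and stood at 38.9, 19.1 and 48.6 CPM in the positive set. Among 8 tested markers of layer 4 and 5 IT neurons, Etv1 was called higher and Scnn1a (-2.16) lower, against 1.87% and 2.81% of genes tested. Etv1, an ETS factor of layer 5, averaged 147, 159 and 178 CPM against 25.5, 15.8 and 17.4 CPM (3.01), and varied little between mice in either set.

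Of 28 tested transcription factors of projection neuron identity, 8 were called higher and 2 lower, with a median log2 difference of 0.41. The shares over all genes tested were 1.87% higher and 2.81% lower. Besides Bcl11b, Pou3f1, Etv1, Ldb2 and Bcl6, the higher factors were Zfpm2 (3.99), a GATA cofactor of corticothalamic neurons, Nfib (1.50), a nuclear factor I protein, and Id2 (1.21), an inhibitor of helix-loop-helix factors. Id2 was abundant in both sets, at 1209, 1169 and 922 CPM against 367, 487 and 588 CPM. The lower factors were Cux1 and Nr4a2 (-2.10), an orphan nuclear receptor, whose values overlapped between the sets because mouse 1 was high in both (103 CPM in positive and 195 CPM in negative cells). Sox5, a regulator of deep layer neurons, was at 121, 129 and 67.6 against 57.7, 101 and 40.9 CPM and did not pass.

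Of 13 tested genes of corticospinal neurons, 6 were called higher and none lower, against 1.87% and 2.81% of all genes tested. However, the list's median was 0.09, and 5 of its other 7 members lay below 0. The 6 were Crym, Bcl11b, Ldb2, Pcp4 (3.38), a calmodulin regulator, Igfbp4 (3.34), which binds insulin-like growth factors, and the contactin gene Cntn6 (1.80). Pcp4 averaged 762, 1229 and 1295 CPM in positive and 157, 77.5 and 86.2 CPM in negative cells. Igfbp4 averaged 252, 225 and 147 CPM against 16.1, 17.8 and 24.4 CPM. Several of these genes are also on the ET list, so the lists are not independent of each other.

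Axon guidance genes moved in both directions. Of 33 tested, 3 were called higher and 6 lower, against 1.87% and 2.81% of all genes tested, with a median log2 difference of -0.34. The higher ones were the Slit receptor gene Robo1 (2.29), the semaphorin and VEGF receptor gene Nrp1 (2.01) and the ephrin gene Efnb3 (1.79). Robo1 averaged 177, 184 and 97.3 CPM against 36.9, 47.3 and 14.1 CPM. The lower ones included a Slit ligand and Nrp2, the paralogue of Nrp1: Slit1 (-4.0), Nrp2 (-2.57), the plexin gene Plxna4 (-2.41), Sema4a (-2.35), Sema3a (-2.12) and the ephrin receptor gene Epha3 (-1.55). Slit1 had no read in the positive sets of mice 1 and 2 and was at 2.96 CPM in mouse 3, against 22.3, 43.2 and 14.9 CPM in negative cells. Nrp1 overlapped between the sets, since its negative level in mouse 2 (73.2 CPM) exceeded its positive level in mouse 3 (66.3 CPM). Among 21 tested cadherins and contactins, Cdh20 (3.41), Cdh4 (2.38), Cntn6 and Cntnap2 (1.51) were called higher and none lower, around a median of -0.01.

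Genes of the neuronal cytoskeleton were called higher in part. Both Nefh (2.26), the heavy neurofilament subunit of large projection neurons, and Prph (1.98), peripherin, were called higher among 5 intermediate filament genes. None was called lower, and the median was 1.13. Over all genes tested, 1.87% were called higher and 2.81% lower. Nefh averaged 82.6, 76.7 and 51.6 CPM against 12.4, 13.8 and 14.7 CPM. Nefl, the light subunit, was at 354, 291 and 445 against 382, 158 and 661 CPM, with no common direction over the mice.

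Among 36 tested potassium channel genes, 4 were called higher and 2 lower. Over all genes tested the shares were 1.87% higher and 2.81% lower, and the channel lists were not tested against them. Kcnn2 (2.14), a calcium-activated channel, averaged 237, 262 and 198 CPM against 61.7, 62.1 and 35.96 CPM. The others called higher were the auxiliary subunit gene Kcnab3 (3.16), Kcna2 (1.30) and Kcng1 (1.04). Those called lower were Kcnc1 (-2.86), a Kv3 channel of fast-spiking cells, and Kcnip2 (-2.31), an A-current subunit. Of 8 tested sodium channel genes, Scn1a (2.33) and the resurgent current subunit gene Scn4b (3.49) were called higher. Scn1a averaged 309, 375 and 223 CPM against 69.9, 35.4 and 77.6 CPM. Of 17 calcium channel genes, the T-type gene Cacna1h (2.94) was called higher and Cacna2d1 (-1.20) lower. Medians over these lists were -0.25, 0.49 and -0.60 for potassium, sodium and calcium channels.

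Peptides and their receptors differed as well. Cck, the cholecystokinin precursor and an abundant transcript in both sets, averaged 466, 515 and 636 CPM in positive against 1795, 2975 and 2751 CPM in negative cells (log2 difference -2.19, SE 0.14; limma adjusted p = 0.00416). It was present in nearly every cell of both sets, with a median per cell of 485 against 2596 CPM. Penk, the enkephalin precursor, had no read in positive cells and was at 3.92, 64.2 and 32.7 CPM in negative cells. It was at least 338-fold lower in the positive set against the same floor, and 26.8% of the negative cells held 10 CPM or more. Nppc, which encodes C-type natriuretic peptide, fell by 2.87, whereas Grp, gastrin-releasing peptide, was called higher (3.64) at 33.3, 61.7 and 23.02 against 4.49, 0 and 3.89 CPM. In all, 1 of 8 tested peptide genes was called higher and 3 lower, against 1.87% and 2.81% of all genes tested. The list's median log2 difference was -1.08.

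Of 31 tested receptors for peptides and modulators, 2 were called higher and 4 lower (median -0.43). For this and the next 2 lists, the shares over all genes tested were 1.87% higher and 2.81% lower. Htr1f (1.58), a serotonin receptor gene, joined Npr3 as higher. The dopamine receptor gene Drd1, the somatostatin receptor gene Sstr3 (-2.66), the neuropeptide Y receptor gene Npy1r (-2.58) and Adra2a (-1.96), an adrenergic receptor gene, were lower. Drd1 had no read in positive cells and averaged 14.6 ± 12.97 CPM in negative cells (SD, n = 3), so it was at least 147-fold lower. Its negative level varied widely, from 1.92 CPM in mouse 3 to 27.8 CPM in mouse 2. Among 21 tested glutamate receptor genes, the kainate receptor gene Grik2 (1.18) was called higher, and its paralogue Grik1 (-2.63) and Grin2d (-3.42), an NMDA receptor subunit gene, were called lower (median -0.11). Of 12 immediate early genes, Egr2 (-2.61) was called lower and none higher (median -0.80). Egr1 (-0.91) and Junb (-1.0) passed the adjusted p (0.0171 and 0.0234 by limma) but not the size required for a call. Egr1 varied more between mice than between sets, at 670, 246 and 241 CPM in positive and 1363, 504 and 388 CPM in negative cells.

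Markers of other cell types were checked beside these groups. Of 11 GABAergic markers besides Gad1 and Gad2, which the gate held low, none passed the filter on low values, 6 had no read in any profile, and their summed level ran from 0.723 to 8.79 CPM over the 6 profiles. None of 6 microglial markers passed either, with Tmem119 at 0 and sums from 0.397 to 3.89 CPM. Of 5 vascular markers 1 was tested and not called, Cldn5 and Pdgfrb were at 0, and sums ran from 0.202 to 2.65 CPM. Of 6 astrocyte markers 3 were tested and none called; their summed level of 67.6 to 334 CPM came mainly from Slc1a2, and Aqp4 and Gfap stayed under 1 CPM. Of 8 oligodendrocyte lineage markers 5 were tested and Mobp (-3.39) was called lower, at 0, 0.112 and 3.19 against 12.5, 15.9 and 22.3 CPM, with summed levels of 81.5 to 180 CPM, chiefly Mbp, and Opalin at 0. The part of such RNA in the Mobp result was not tested. For scale, 2.81% of all genes tested were called lower.

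Markers of other deep layer neurons were tested in part, and only the corticothalamic list was tested whole. Calls went in both directions on that list alone. None of 3 tested markers of layer 5 near-projecting neurons was called, and Slc17a8 had no read in either set. Of 7 corticothalamic markers, Zfpm2 was called higher and Sulf1 (-3.21) lower, while Foxp2 stood at 8.48, 9.71 and 5.95 against 4.79, 9.69 and 1.80 CPM. Of 2 tested layer 6b markers Cplx3 (-3.51) was called lower. Among all genes tested, 1.87% were called higher and 2.81% lower. Neither of 2 tested layer 6 IT markers was called (median -2.27, or -3.94 with the gene without a read at its bound). Osr1, the one with no read in positive cells, missed the threshold (limma adjusted p = 0.0503). Of 13 tested glutamatergic markers all had log2 differences below 0 (median -0.87) and only Slc30a3 was called.

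The Fezf2-positive set was not uniform, and the cells that stood apart were mostly from mouse 3. In 8 of the 54 positive cells, 1 of mouse 1 and 7 of mouse 3, Rorb reached 10 CPM; this subset was chosen after its values were seen and no test was made on it. These 8 cells held 60.0 to 143 CPM of Fezf2, while the other 46 held 181 to 773 CPM, so that the subset occupied the whole lower end of the positive range. Bcl11b, Npr3, Stac, Nrtn, Stk17b and Syt2 had no read in any of the 8 cells, and Pou3f1 reached 10 CPM in 1 of them. In the other 46 cells Bcl11b reached 10 CPM in 46, Pou3f1 in 45 and Crym in 45. Crym was present in 5 of the 8 at a median of 44.3 CPM, against a median of 303 CPM in the 46. Pcp4 (median 1480 against 868 CPM) and Etv1 (110 against 164 CPM) were high in both groups of cells.

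The 8 cells carried genes that were at low level or without a read in most of the other 46. Of those given below, Deptor is on the layer 4 and 5 IT list and Slc30a3 on the callosal list. Cux2, of the layer 2/3 IT list, reached 10 CPM in 1 of the 8 cells and in 1 of the 46. Neurod6, a helix-loop-helix factor on the glutamatergic list, had a median of 356 CPM against 0, and the netrin receptor gene Unc5d 530 against 0 CPM. S100a10, the annexin partner p11 and a member of the corticospinal list, had a median of 366 against 0 CPM. Deptor, an inhibitor of mTOR, had 143 against 0 CPM, and Slc30a3 115 against 10.4 CPM. The median depth was 583283 reads in the 8 cells and 587978 in the 46, and the part of depth was not tested. Cells of this kind lay on both sides of the cut: of 8 negative cells with Fezf2 from 10 to under 50 CPM, 7, all of mouse 1, had Rorb at 10 CPM or more, at a median of 498 CPM over the 8. Between 10 and 150 CPM of Fezf2, 15 of 16 cells had Rorb at 10 CPM or more, and none of the 46 cells from 150 CPM upward had. In cells without a Fezf2 read the share was 9.59%.

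Among cells with both a Fezf2 read and Rorb at 10 CPM or more, the 50 CPM cut thus placed 7 of 8 of mouse 1 in the negative set and 7 of 8 of mouse 3 in the positive set. Rorb averaged 13.03, 0.515 and 114 CPM in the positive sets and 146, 8.28 and 57.7 CPM in the negative sets, and was not called (log2 difference -1.68, SE 0.81; limma adjusted p = 0.287). Neurod6 averaged 14.9, 5.79 and 146 CPM against 171, 411 and 153 CPM, and was not called either. With Fezf2 at 150 CPM or more against under 50, a cut chosen after the data were seen, 46 cells stood against 82. Of 15557 genes tested, 1507 were then called, with 512 higher (3.29%) and 995 lower (6.40%), and these included 292 of the 293 and all 439 genes called before. The 46 cells are the same cells as the positive cells with Rorb under 10 CPM, so the cut was fitted to these values and its counts are a description, with no support drawn from them. Log2 differences under that cut were -6.48 for Neurod6, -5.04 for Rorb and -4.59 for the LIM homeobox gene Lhx2. The positive level of mouse 3 was then 99.6 CPM for Pou3f1 in place of 61.7 CPM, and 63.1 CPM for Bcl11b in place of 38.6 CPM, closer to the other mice. Of the callosal genes 8 of 11 were then called lower, of the glutamatergic markers 7 of 13, and of the transcription factors 9 higher and 8 lower. Leaving out each mouse under that cut gave 1032, 1327 and 898 calls.

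The negative set was mixed too. Cux1 reached 10 CPM in 74.4% of its cells, Cbln4 in 63.4%, Rmst in 46.3%, Cux2 in 41.5%, Otof in 20.7% and Rorb in 18.3%. Rorb in this set came from 15 cells, in which Unc5d (median 527 CPM) and S100a10 (229 CPM) were also high and Bcl11b had no read. Pou3f1 and Bcl11b were not absent from negative cells, at 25.6% and 14.6% of cells with 10 CPM or more, while Stac and Nrtn reached 10 CPM in none of 82 cells, which allows a share of up to 3.66%. Levels between mice also differed within the set, with Rorb at 146 CPM in mouse 1 and 8.28 CPM in mouse 2.

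The same split was made in mice of other enhancers that had at least 3 cells in each set: 2 mice of eHGT_023h and 3 of eHGT_058h, all C57Bl/6J and from VISp, with 34 positive and 91 negative cells. Their mean Fezf2 in positive cells, 86.4 to 292 CPM by mouse, lay mostly below that in eHGT_078h, and the negative set of eHGT_023h mouse 3 had only 3 cells. Of 16813 genes tested there, 18 were called (0.107%), 3 higher (0.0178%) and 15 lower (0.0892%). Hsd11b1, which regenerates active glucocorticoid, was higher in each of the 5 mice (log2 difference 2.33, SE 0.23, limma adjusted p = 0.00887). In eHGT_078h it was at 2.11, 9.88 and 105 CPM against 43.5, 2.88 and 5.53 CPM and was not called. Its highest values there were in cells with Rorb on opposite sides of the cut. They reached 567 CPM in a positive cell of mouse 3 and 411 CPM in a negative cell of mouse 1. Cbln4 (-3.13) and Hpcal1 (-2.47) were called lower in both comparisons. The count of 18 depended on single mice, with none called without eHGT_023h mouse 1 (1429 at an unadjusted p under 0.05, by limma), 63 without eHGT_023h mouse 3, 3 without eHGT_058h mouse 1 or mouse 2, and 10 without eHGT_058h mouse 3.

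Most genes called in eHGT_078h had the same direction in these other animals, with smaller differences than in the animals on which they had been selected. Of 284 higher genes that were tested there, 230 (81.0%) were above 0, against 45.4% of 14997 genes tested in both. Of 437 lower genes, 398 (91.1%) were below 0, against 54.6%. Median log2 differences were 0.54 against 2.07 in eHGT_078h for the higher genes and -0.87 against -2.24 for the lower genes. With genes that had no read in one set of eHGT_078h placed at their bounds, the medians there were 2.12 and -2.27. In all 5 mice the sign was kept by 53 of the higher and 123 of the lower genes, and 1 and 11 were called in the same direction. A test of the difference between the contrasts, 3 mice of eHGT_078h against the 5 others, called none of 18115 genes (limma; 1438 at an unadjusted p under 0.05, lowest adjusted p 0.131). No gene can thus be called particular to eHGT_078h.

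**Figure D5:**
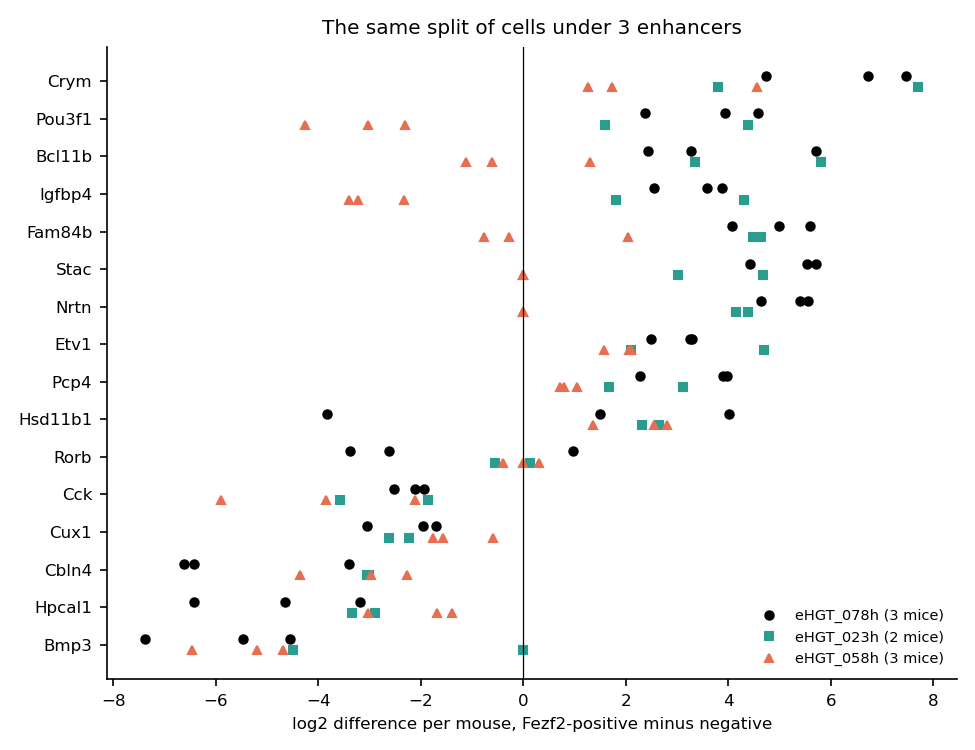
Log2 difference per mouse (Fezf2-positive minus negative) of 16 genes in 3 mice of eHGT_078h, 2 of eHGT_023h and 3 of eHGT_058h, 1 point per mouse. For Pou3f1 and Igfbp4 the mice of eHGT_023h lie right of 0 and those of eHGT_058h left of it, while Crym lies right of 0 and Cck, Cux1, Cbln4 and Hpcal1 lie left of it in all 8 mice.

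Pou3f1 and Crym were followed mouse by mouse in these animals. Pou3f1 was at 44.1 and 87.4 CPM in the positive sets of eHGT_023h mice 1 and 3 against 13.9 and 3.25 CPM in their negative sets. In eHGT_058h it was at 0, 0 and 0.355 CPM against 7.16, 18.1 and 5.73 CPM, the reverse direction. Crym was higher in positive cells of all 5 mice, at 245 and 208 CPM in eHGT_023h and 131, 80.5 and 61.9 CPM in eHGT_058h. All 23 positive cells of eHGT_058h had Rorb at 10 CPM or more and none had Pou3f1 at that level. In eHGT_023h 5 of 11 positive cells had Rorb and 7 had Pou3f1 at 10 CPM or more. A difference between these 2 enhancers was not tested.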

How the data were processed

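Single SYFP2-expressing cells were sequenced by the authors with SMARTerv4; STAR and mm10 are named in the submitters' processing notes. The deposited table gives CPM, reads per 1000000 in the cell, of 45768 genes in 1483 cells. Within 0.01 reads, 100% of values came out as whole reads, so depth per cell was recovered. How reads of overlapping genes or near-identical copies were counted is not given in the sources used here. Each cell was its own library and no doublet caller was run.

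Mean CPM per mouse and cell set was taken as log2(CPM + 1), keeping genes that reached 1 CPM in 2 or more of the 6 profiles, and tested with limma 3.58.1 (trend, robust) with mouse as a block, since both sets came from the same animals. The 4 genes of the cell rule (Fezf2, Slc17a7, Gad1, Gad2) were not tested. Named genes are the 12 largest rises and falls among called genes of 20 CPM or more in the higher set, with the same sign in all mice and an official symbol, plus members of 28 gene lists. The cell sets, markers and lists were chosen with earlier results of these data known. The p-values measure the spread between these 3 mice. The fit was also run on simulated data, with noise drawn from its own variance trend. It called 99 of 100 genes given a log2 difference of 2 in size, and 2 of 15443 given none. Such noise follows the model of the fit, so the run cannot test the calls made here. Alternatives covered pseudocount, filter, summary over cells, test, block, cuts, depth and each mouse left out.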

Additional observations from a re-analysis of the deposited data

Results flagged for a closer look

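Among 37 genes followed over the 5 mice of other enhancers, 4 had 1 mouse far from the rest by Dixon's test, which chance gives for about 1 in 20 groups. Rasgrp2 differed by 4.49 (log2, Fezf2-positive minus negative) in eHGT_023h mouse 1 and by 1.25 to 1.89 in the other mice. Etv1 differed by 4.69 in the same mouse and by 1.57 to 2.10 elsewhere. Npr3 differed by 4.33 in that mouse and by -0.97 to -0.33 elsewhere. Gnb4 stood at 0 in eHGT_023h mouse 3, where neither set had a read, and between -6.22 and -4.99 in the other 4 mice.

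For 5 genes that rose in all 3 mice of eHGT_078h, all 3 mice of eHGT_058h moved the opposite way. Mean log2 differences in eHGT_058h were -3.20 for Pou3f1 (-4.25 to -2.31 by mouse), -2.99 for Igfbp4 (-3.39 to -2.33), -2.19 for Bcl6 (-3.13 to -1.68), -0.64 for Npr3 (-0.97 to -0.33) and -0.56 for Ldb2 (-0.94 to -0.32). Npr3 is at the floor there: no positive cell of eHGT_058h had a read, and the negative sets averaged 0.954, 0.254 and 0.539 CPM. The difference between eHGT_078h and eHGT_058h was not tested.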

How the results depend on the processing

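The 732 calls became 464 with a pseudocount of 10, 1471 with the mean of log2 over cells, 1147 with Fezf2 at 100 CPM or more against under 10, and 1507 with 150 CPM or more against under 50, a cut chosen after seeing the data (1327 without mouse 2). Leaving out each mouse gave 0 to 972 calls, and 898 to 1327 under the 150 CPM cut. Without the replicate block, that is without pairing by mouse, 864 genes were called; the block changed no direction. The other planned settings gave 527 to 931 calls. Of 88 named genes and called list members none changed direction in a setting that tested it (the filter of 10 CPM kept 75 of them). The call was lost by 84 without mouse 1, 88 without mouse 2, 6 without mouse 3, 19 with limma voom, 16 and 15 with pseudocounts of 0.1 and 10, 11 without the block, 7 without a filter, 1 to 4 in the other planned settings and 0 under the 150 CPM cut. The other-enhancer count of 18 became 94 (cut at 10 CPM), 0 (cut at 100 CPM), 68 (100 CPM or more against under 10), 33 (10 CPM in 3 profiles), 4 (no filter), 37 (no replicate block) and 9 (pseudocount 0.1), and 0 to 63 on leaving out a mouse. The share of positive cells was 45.3% with a cut of 10 CPM against 39.6%. The cause of these shifts was not tested. limma voom on recovered reads gave 553 calls, and the planned edgeR and DESeq2 fits were not run. With 3 mice and 16 to 28 cells per set and mouse, small differences cannot be resolved.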
